A study of Mus musculus with 13 samples.

Results

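Immediate early response genes are switched on within minutes of a growth factor, synaptic or stress signal, without new protein synthesis. The 10 described here are Fos, Fosb, Jun and Junb, which encode subunits of the AP-1 transcription factor, Egr1 and Egr2, which encode zinc-finger factors, Atf3, which encodes a stress-induced bZIP factor, Nr4a1, which encodes an orphan nuclear receptor, Ier2, which encodes a small nuclear protein, and Arc, which encodes a synaptic regulator of receptor trafficking. They were taken by gene identifier from the 20689 gene bodies of the deposited table, and all 10 are present there. To each gene body were added the CpG island that holds its transcription start site (TSS), found for 9 of the 10 genes, and every region of the file's classes Enh and IS that overlaps the gene body or the 5 kb upstream, 62 in all. The file does not spell out Enh and IS.

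The cells were mouse neural stem and progenitor cells from the cortex and ganglionic eminences of E14.5 embryos, grown as neurospheres and taken at passage 5, day 3. Chromatin immunoprecipitation and sequencing (ChIP-seq) used an antibody to histone H3 acetylated at lysine 14 (H3K14ac) or to KAT7 (HBO1), the acetyltransferase that acetylates this residue. For H3K14ac the labels list 4 libraries of Kat7-intact cells (Kat7+/+NesCreT/+) and 3 of Kat7-deleted cells (Kat7lox/loxNesCreT/+). For KAT7 they list 3 of intact and 1 of deleted cells, and each antibody's experiment had 1 IgG library. Both genotypes carried the NesCre transgene, and the isolates came from separate animals. The deposited table holds 1 merged column for each antibody and does not say which libraries or genotypes were merged, so genotypes, replicates and IgG could not be compared and the deletion could not be checked.

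Values are RPKM, reads per kilobase of region scaled to the column's read total, which was 141734087 in the H3K14ac column and 134111848 in the KAT7 column. Intervals in parentheses are 95% exact Poisson intervals for a level and 95% exact binomial intervals for a ratio. They cover counting error only, reads are not independent molecules, and no p-value is given. A ratio is KAT7 RPKM over H3K14ac RPKM. The columns share no scale, so each ratio is read against the median ratio of its class of region, which was 1.05 for gene bodies and 1.06 for CpG islands holding a TSS. The neural stem and progenitor markers checked had median gene body levels of 0.504 (H3K14ac) and 0.594 (KAT7) over 9 of 12 genes, and neuron markers 0.343 and 0.348 over 3 of 6. Microglia and blood markers had 0.392 and 0.365, and endothelial and mural markers 0.404 and 0.368, over 6 genes each, beside 0.381 and 0.399 for all gene bodies. Median gene body lengths of these 4 marker lists were 3528, 68979, 22579 and 44021 bases in that order, and length was not matched. How much of any level is background was not tested.

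Acetylated histone H3 is found around active and inducible promoters, and immediate early genes are known for promoters that are kept ready for use before a stimulus arrives. Their start regions hold sites for the serum response factor (the CArG box), for CREB and ATF factors (TGACG, the core of the cyclic AMP response element) and for AP-1. The 250 bases before the TSS are printed for the AP-1 genes and Atf3 whose short elements at the TSS are described further on. They come from RefSeq (GRCm38.p6) and run 5′ to 3′. Fos lies at chr12:85473640-85473889 on the plus strand, Jun at chr4:95052223-95052472, Junb at chr8:84978749-84978998 and Atf3 at chr1:191183334-191183583, all 3 on the minus strand. Capitals mark the TATAAA motif of Fos, the TGACATCA of Jun and, on either strand, the core of the cyclic AMP response element in Fos, Junb and Atf3.
Fos: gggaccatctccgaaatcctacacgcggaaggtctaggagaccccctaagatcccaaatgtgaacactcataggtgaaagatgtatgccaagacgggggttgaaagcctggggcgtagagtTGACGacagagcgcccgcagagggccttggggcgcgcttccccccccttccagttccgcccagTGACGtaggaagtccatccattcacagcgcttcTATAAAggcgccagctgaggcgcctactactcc
Jun: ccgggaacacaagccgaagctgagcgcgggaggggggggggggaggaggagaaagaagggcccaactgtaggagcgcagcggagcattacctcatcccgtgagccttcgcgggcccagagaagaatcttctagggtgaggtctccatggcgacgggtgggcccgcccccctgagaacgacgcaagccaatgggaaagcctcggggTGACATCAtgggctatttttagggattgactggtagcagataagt
Junb: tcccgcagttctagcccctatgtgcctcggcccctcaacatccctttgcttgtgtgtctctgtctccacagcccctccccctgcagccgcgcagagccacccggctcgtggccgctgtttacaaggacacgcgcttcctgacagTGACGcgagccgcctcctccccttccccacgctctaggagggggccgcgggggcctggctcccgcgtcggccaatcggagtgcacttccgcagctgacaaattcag
Atf3: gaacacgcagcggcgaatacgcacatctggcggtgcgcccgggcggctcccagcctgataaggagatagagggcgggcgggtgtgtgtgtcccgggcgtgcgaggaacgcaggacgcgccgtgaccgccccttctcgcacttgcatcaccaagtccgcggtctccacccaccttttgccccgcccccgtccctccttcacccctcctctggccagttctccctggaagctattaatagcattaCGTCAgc

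Of 32851 RefSeq promoters, 17.8% held TGACG on either strand in these 250 bases, and so did 6 of the 7 members with a listed promoter, namely Fos, Fosb, Junb, Egr2, Atf3 and Nr4a1, with Jun the seventh. In Jun the related TGACATCA, present in 2.93% of promoters and added to the search after its promoter had been read, ends 38 bases before the TSS. The TATAAA of Fos, a motif held by 12.4% of promoters, ends 28 bases before its RefSeq start. Egr1, Ier2 and Arc had no listed promoter, and sites more than 250 bases before the start were not searched. Of the 7 promoters searched, 1, that of Egr2, held a CArG box in these bases, as 1.47% of all promoters did. It lies beside a TGACG read on the other strand, at chr10:67537797-67537826 on the plus strand, shown with both in capitals.
Egr2: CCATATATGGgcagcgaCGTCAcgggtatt
GCGGGGGCG, the sequence recognised by EGR factors, was in Fosb and Nr4a1 and in 2.57% of promoters, and CCGGAA, the core bound by ETS factors, was in Nr4a1 and in 12% of promoters. The full TGACGTCA, TGANTCA and AAAGGTCA were in none of the 7, and in 1.55%, 6.75% and 1.34% of promoters. The members' promoters were also richer in G and C, with a median of 65.2% against 52.4%, and held a median of 19 CG pairs against 6; the part of base makeup in the motif counts was not tested. A match is a description of the letters and says nothing of binding.

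Gene bodies of Ier2, Jun and Junb stood highest for both antibodies, Fos and Egr1 were intermediate, and Fosb and Nr4a1 were lowest. Ier2 (chromosome 8, 84661331 to 84662852, minus strand) had 190 H3K14ac reads and 145 KAT7 reads over 1.522 kb. Its H3K14ac level was 0.881 (0.760 to 1.02) and its KAT7 level 0.711 (0.60 to 0.836). Junb (chromosome 8, 84976909 to 84978748, minus strand) had 0.702 (0.604 to 0.812) and 0.653 (0.556 to 0.762). All 4 intervals lay above the class medians of 0.381 and 0.399.

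Jun (chromosome 4, 95049036 to 95052222, minus strand) was the member with the highest ratio of KAT7 to H3K14ac. Its gene body held 281 H3K14ac and 394 KAT7 reads, levels of 0.622 (0.552 to 0.699) and 0.922 (0.833 to 1.02). The ratio was 1.48 (1.27 to 1.73), at the 96.6 percentile of 2812 gene bodies of 0.5 to 2 times its length. Its interval was the 1 of 10 that lay above the class median ratio of 1.05, and that of Ier2, 0.807 (0.645 to 1.01), the 1 that lay below it. Its KAT7 level was 1.41 (1.17 to 1.71) times that of Junb, its closest relative in the set, while the H3K14ac levels of Jun and Junb could not be told apart (0.886, 0.733 to 1.07).

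Fos (chromosome 12, 85473901 to 85477269, plus strand) had an H3K14ac level of 0.511 (0.449 to 0.579) and a KAT7 level of 0.507 (0.443 to 0.577). Fosb (chromosome 7, 19302696 to 19310045, minus strand) had 0.306 (0.274 to 0.342) and 0.350 (0.314 to 0.389), the lowest of the 10 for both. Fos was thus 1.67 (1.41 to 1.98) times Fosb for H3K14ac and 1.45 (1.22 to 1.72) times for KAT7. Egr1 (chromosome 18, 34861207 to 34864956, plus strand) had 0.542 (0.481 to 0.608) and 0.487 (0.428 to 0.552). Its relative Egr2 (chromosome 10, 67537869 to 67542188, plus strand) had 0.399 (0.350 to 0.452) and 0.394 (0.344 to 0.448), so that Egr1 was 1.36 (1.14 to 1.62) and 1.24 (1.03 to 1.49) times Egr2.

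Levels close to the class median were found at Atf3 and Arc. Atf3 (chromosome 1, 191170296 to 191183333, minus strand), the longest member at 13.038 kb, had an H3K14ac level of 0.387 (0.360 to 0.417) and a KAT7 level of 0.405 (0.376 to 0.436). Arc (chromosome 15, 74669083 to 74672570, minus strand) had 0.384 (0.332 to 0.443) and 0.413 (0.357 to 0.475). Nr4a1 (chromosome 15, 101266846 to 101274795, plus strand) lay lower, with 0.326 (0.293 to 0.361) and 0.354 (0.319 to 0.391). RefSeq places the start of the Nr4a1 locus at 101253902 and that of Egr2 at 67534469, upstream of the deposited gene bodies, so these 2 rows cover only part of the RefSeq locus.

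**Figure D1:**
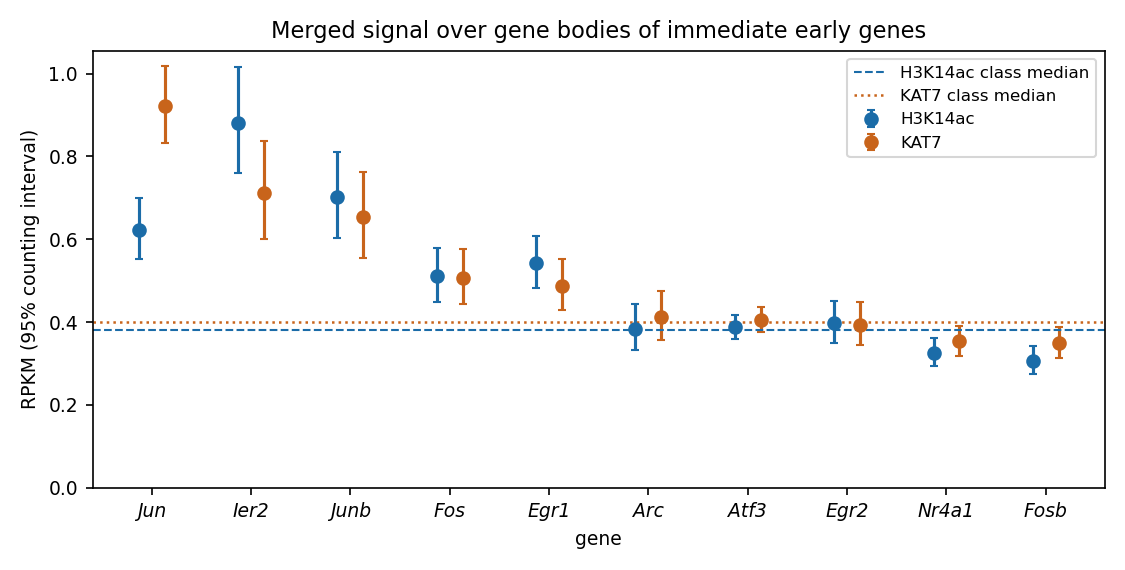
RPKM of H3K14ac (blue) and KAT7 (orange) over the gene body of each of the 10 genes, ordered by KAT7, with 95% counting intervals; dashed and dotted lines are the medians of 15774 gene bodies, 0.381 and 0.399. Jun, Ier2 and Junb stand above the rest for both antibodies, and Jun has the highest ratio of KAT7 to H3K14ac, 1.48.

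In the order of H3K14ac levels, only the steps from Ier2 to Junb (1.26, 1.02 to 1.55) and from Fos to Egr2 (1.28, 1.07 to 1.54) had an interval that left out 1. For KAT7 these were the steps from Jun to Ier2 (1.30, 1.07 to 1.58) and from Junb to Fos (1.29, 1.05 to 1.58). All other neighbours could not be told apart at this depth. At least 1.5 times the class median was reached by 3 of 10 members for H3K14ac (Ier2, Jun, Junb) and by the same 3 for KAT7, beside 2.1% and 1.89% of all 15774 gene bodies. No member was 1.5-fold below the median, against 1.12% and 0.907% of gene bodies. No member's ratio was 1.5-fold above or below the median ratio, as in 0.811% and 0.761% of gene bodies.

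All 10 members were shorter than the median gene body of 17.5 kb, and the shortest members fell where levels were higher: the median H3K14ac level was 0.415 among gene bodies near the length of Ier2, 0.404 near that of Junb and 0.369 near that of Atf3, beside 0.381 for all. Against gene bodies of 0.5 to 2 times their own length, the H3K14ac levels of Ier2, Junb and Jun were at the 99.6, 98.3 and 98.3 percentiles and their KAT7 levels at the 98.1, 96.9 and 99.5 percentiles. Fos was at 94.9 and 90.9, and Egr1 at 97.0 and 88.9. Nr4a1 was at 13.5 and 15.7, and Fosb at 6.05 and 13.6, so those genes were low among genes of similar length too. The file's expression mark was its middle class, Other, for all 10.

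At the CpG islands over the TSS, H3K14ac levels ran from 0.358 to 0.942 and KAT7 levels from 0.259 to 0.872. The highest island was that of Ier2 for H3K14ac (84661923 to 84662867), with 0.942 (0.784 to 1.12), and its KAT7 level was 0.750 (0.607 to 0.917). Jun's island (95049985 to 95053224), which spans most of its gene, was highest for KAT7 with 0.872 (0.787 to 0.965), beside an H3K14ac level of 0.688 (0.615 to 0.769). Its ratio of 1.27 (1.09 to 1.48) had the 1 interval of 9 above the class median ratio of 1.06, and Ier2's ratio of 0.797 (0.604 to 1.05) the 1 interval below it. The islands of Jun and Ier2 lie largely inside the gene bodies, so they share reads with the gene body ratios and are not separate evidence. The same holds for the short regions inside both genes described further on. The islands of Junb, with 0.621 (0.545 to 0.704) and 0.571 (0.497 to 0.654), and of Fos, with 0.548 (0.447 to 0.665) and 0.579 (0.472 to 0.703), came next.

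The low end for KAT7 was held by Egr1, Nr4a1 and Arc. Egr1's island (34860474 to 34861222), nearly all upstream of the TSS, had 26 KAT7 reads, a level of 0.259 (0.169 to 0.380), at the 3.33 percentile of 6940 islands of 0.5 to 2 times its length. Its H3K14ac level was 0.358 (0.254 to 0.492). Nr4a1's island (101266445 to 101267076) had a KAT7 level of 0.319 (0.210 to 0.464) beside 0.492 (0.357 to 0.660) of H3K14ac, and Arc's (74671938 to 74672803) had 0.328 (0.232 to 0.450) beside 0.383 (0.282 to 0.510). In the order H3K14ac and KAT7, Fosb had 0.374 (0.303 to 0.456) and 0.375 (0.302 to 0.460), and Atf3 had 0.359 (0.292 to 0.437) and 0.417 (0.343 to 0.504).

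**Figure D2:**
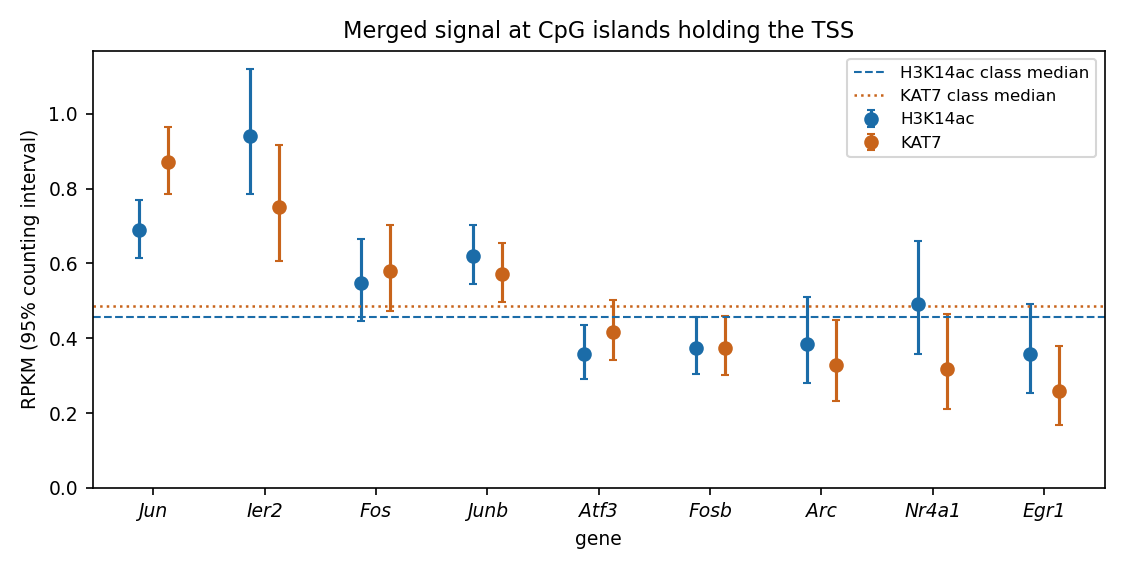
RPKM of H3K14ac (blue) and KAT7 (orange) at the CpG island holding the TSS of 9 genes, ordered by KAT7, with 95% counting intervals; lines are the medians of 8899 such islands, 0.458 and 0.487. KAT7 falls from 0.872 at Jun to 0.259 at Egr1, and H3K14ac is highest at Ier2.

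Against medians of 0.458 and 0.487 over 8899 islands, 2 of 9 islands (Ier2 and Jun) were at least 1.5 times the median for H3K14ac and the same 2 for KAT7, beside 13.4% and 7.05% of islands. Jun passed for H3K14ac by the narrowest margin, with 0.688 against a limit of 0.687. For KAT7, 2 of 9 (Egr1 and Nr4a1) were 1.5-fold or more below the median, beside 9.91% of islands; Arc lay just outside at 0.673 times. None was as far below for H3K14ac, as 17.7% of islands were. Nr4a1 was the 1 island with a ratio 1.5-fold below the median ratio, 0.649 (0.386 to 1.07), beside 12.6% of islands, and none was 1.5-fold above, beside 15.1%. With 9 islands, these counts are near the background or differ from it by 1 or 2 genes. Between the relatives, the KAT7 level of Jun's island was 1.53 (1.29 to 1.82) times that of Junb's, and Fos's was 1.54 (1.15 to 2.07) times that of Fosb's.

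The island of Egr2 does not hold the TSS. The nearest, 129 bases upstream (67535271 to 67537740), had 151 H3K14ac and 90 KAT7 reads, levels of 0.432 (0.365 to 0.506) and 0.272 (0.219 to 0.334) and a ratio of 0.630 (0.480 to 0.823). A second island inside the gene (67538299 to 67539109) had 0.714 (0.568 to 0.887) and 0.589 (0.454 to 0.752). The 2 islands of Egr2 thus differed in level, with the lower values upstream.

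The deposited promoter windows, which end at the TSS of the 4 plus-strand genes and span about 2 kb, had low ratios of KAT7 to H3K14ac at Fos, Egr1 and Egr2. Fos (85471901 to 85473901) had 159 H3K14ac reads and 99 KAT7 reads, levels of 0.561 (0.477 to 0.655) and 0.369 (0.300 to 0.449). That H3K14ac level was at the 98.1 percentile of 9809 windows, and the ratio, 0.658 (0.507 to 0.851), at the 0.418 percentile. Egr2 (67535869 to 67537869) had 140 and 78 reads, levels of 0.494 (0.415 to 0.583) and 0.291 (0.230 to 0.363), and a ratio of 0.589 (0.441 to 0.782) at the 0.0918 percentile. Most of its bases lie in the upstream island just described, so the reads are shared, and the RefSeq Egr2 locus begins before it.

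The Egr1 window (34859207 to 34861207) had 115 and 77 reads, levels of 0.406 (0.335 to 0.487) and 0.287 (0.227 to 0.359), and a ratio of 0.708 (0.523 to 0.953) at the 1.19 percentile. It differed from Fos in that its KAT7 level was low, at the 2.20 percentile, while its H3K14ac level was at the 66.1 percentile. The window holds nearly all of Egr1's island, so the reads are shared. Nr4a1 (101264846 to 101266846) had 110 and 100 reads and a ratio of 0.961 (0.725 to 1.27). Ratios 1.5-fold or more below the median of 1.08 were thus found in 3 of 4 windows, beside 1.6% of all windows. All 4 windows overlap a CpG island, and the background windows were not matched for this. Among CpG islands holding a TSS, which are mostly shorter, 12.6% had a ratio as far below their own median. The windows were singled out after their values had been seen. For single antibodies none of the 4 windows was 1.5-fold above or below the median, beside 1.63% and 2.38% of windows for H3K14ac and 1.09% and 1.24% for KAT7, and no ratio was 1.5-fold above, beside 1.53%. The median ratio of 1.08 lay above the intervals of Fos, Egr1 and Egr2.

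On the other side of the same genes the ratios were 1.19 (0.894 to 1.59) for Fos, 1.14 (0.875 to 1.49) for Egr1, 1.31 (1.01 to 1.71) for Egr2 and 1.03 (0.784 to 1.35) for Nr4a1, in windows that start at the transcription end site (TES). Their median was 1.07, and none was 1.5-fold above or below it, beside 1.62% and 1.1% of 9774 windows. Neither antibody's level was, beside 0.818% and 1.44% for H3K14ac and 0.604% and 1.08% for KAT7. The difference between the windows before and after these genes was not tested. The 6 minus-strand members have no usable windows, since the deposited length is -1999 bases with 0 reads.

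**Figure D3:**
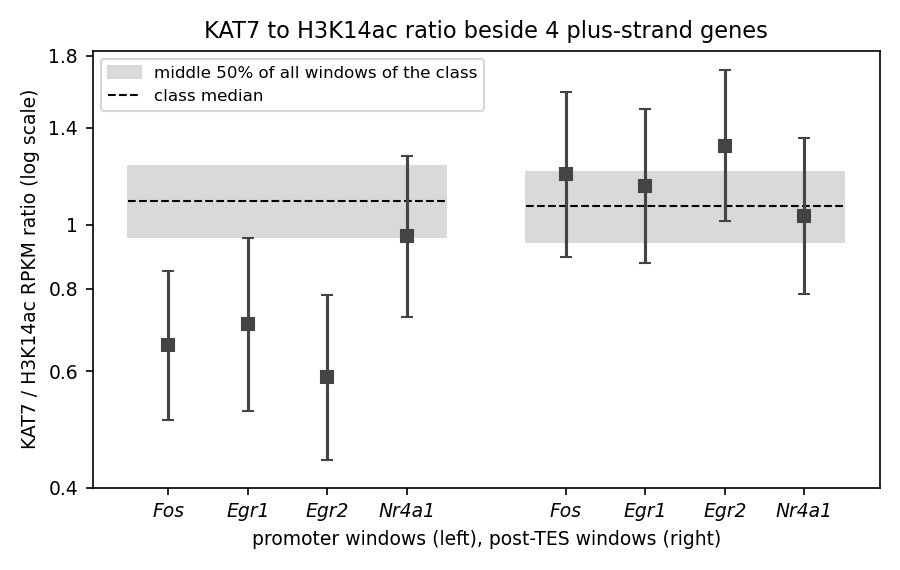
Ratio of KAT7 to H3K14ac RPKM (log axis) in the promoter windows and post-TES windows of the 4 plus-strand genes, with 95% counting intervals; grey bands hold the middle 50% of all windows of the class and dashed lines their medians, 1.08 and 1.07. Fos, Egr1 and Egr2 lie below the band upstream and not downstream.

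The 62 Enh and IS regions comprised 18 Enh and 44 IS regions, of which 56 were at most 400 bases long. These 56 were compared with 34462 short Enh and IS regions near a TSS, whose medians were 0.528 for H3K14ac and 0.589 for KAT7. At least 1.5 times the median was reached by 20 of 56 for H3K14ac (35.7%, beside 21.9% of all) and by 15 of 56 for KAT7 (26.8%, beside 17.2%). At least 1.5-fold below it were 11 of 56 for H3K14ac (19.6%, beside 25.6%) and 10 of 56 for KAT7 (17.9%, beside 21.5%). The ratio was 1.5-fold above the median ratio in 10 of 56 (17.9%, beside 25.4%) and 1.5-fold below it in 16 of 56 (28.6%, beside 21.5%). Regions of 1 gene lie close together and are not independent, and 1 pair at Nr4a1 shares bases.

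Of the 7 short regions of Jun, 5 had a ratio above the median of 1.06, which splits all short regions about evenly. Summed over the 7, the H3K14ac level was 0.697 (0.576 to 0.835) and the KAT7 level 1.10 (0.944 to 1.28), a ratio of 1.58 (1.24 to 2.02). Jun's long Enh region, from -2153 to 2044, held 365 H3K14ac and 391 KAT7 reads. Its ratio was lower, 1.13 (0.979 to 1.31), with an interval that held 1.06, the median of short regions. No median was taken for long regions, and this one shares reads with Jun's gene body, island and short regions. The short region over the TSS (95052123 to 95052301, -79 to 99 from the TSS), which holds the TGACATCA printed above, had 8 H3K14ac and 24 KAT7 reads, a ratio of 3.17 (1.38 to 8.16). The region with most signal (95051160 to 95051306) had 0.918 (0.553 to 1.43) and 1.74 (1.2 to 2.43). Farther into the gene, at 2052 to 2202 bases after the TSS, a region (95050020 to 95050170) had 5 and 24 reads, a ratio of 5.07 (1.9 to 17.0). The 5 short regions with a ratio above the median lay over the TSS or inside the gene.

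Over the TSS of Atf3, the region from -57 to 93 (191183240 to 191183390), which includes the CGTCA at the end of its printed promoter, held 1 H3K14ac read and 16 KAT7 reads. The ratio was 16.9 (2.63 to 709), from so few H3K14ac reads that its size is poorly known. Junb's region from -142 to 8 (84978740 to 84978890) had 9 and 19 reads, a ratio of 2.23 (0.962 to 5.60), and includes its printed TGACG. At Fos, the region from -121 to 29 (85473780 to 85473930), with the TATAAA and the nearer TGACG, had 12 and 7 reads, a ratio of 0.616 (0.206 to 1.70). The intervals of Junb and Fos both held the median of 1.06, as did those of Arc, with 7 and 10 reads, and Egr1, with 7 and 9, so none of these was told from the median at this depth.

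Short regions with ratios below the median of 1.06 prevailed in the bodies of Egr1, Ier2 and Arc and upstream of Arc and Nr4a1. The 6 short regions inside Egr1 had 116 H3K14ac and 82 KAT7 reads, a ratio of 0.747 (0.556 to 1.00), and the highest H3K14ac of them was 1.27 (0.855 to 1.81) at 472 to 639 bases after the TSS. In Ier2 all 3 short regions had a ratio below the median, with summed levels of 1.07 (0.873 to 1.30) and 0.852 (0.671 to 1.07). The ratio of these sums, 0.795 (0.583 to 1.08), had an interval that held the median. All 5 short regions upstream of Arc had a ratio below the median as well. They held 74 and 45 reads in sum, a ratio of 0.643 (0.434 to 0.943). Inside Arc all 3 did, with 0.648 (0.346 to 1.18), and upstream of Nr4a1 all 3, with 0.856 (0.528 to 1.38). Both of these intervals held the median. Arc's long Enh region, from -1008 to 254, had 61 and 64 reads and a ratio of 1.11 (0.768 to 1.60). Those of Ier2, with 0.804 (0.688 to 0.940), and Egr1, with 0.719 (0.520 to 0.988), lay below 1.06, the median of short regions. Ier2's long region covers most of its gene body, its island and its short regions. Egr1's lies inside its promoter window and overlaps its island. Both share those reads and are not separate evidence. Upstream of Egr2 the strongest region (67536814 to 67536923) had 18 and 6 reads, a ratio of 0.352 (0.114 to 0.926).

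The remaining genes were mixed. Inside Nr4a1 the ratio was 3.17 (1.10 to 11.2) at 101269840 to 101270007. At 101271268 to 101271392 it was 0.528 (0.209 to 1.24), which was not told from the median. Junb had a region rich in H3K14ac just upstream (84978909 to 84979097; 17 and 6 reads) and one rich in KAT7 farther up (84979940 to 84980090; 6 and 17 reads). Fosb had 2 H3K14ac and 12 KAT7 reads at -405 to -255 (19310300 to 19310450), a ratio of 6.34 (1.41 to 58.3). Single regions were picked here for their extreme values.

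**Figure D4:**
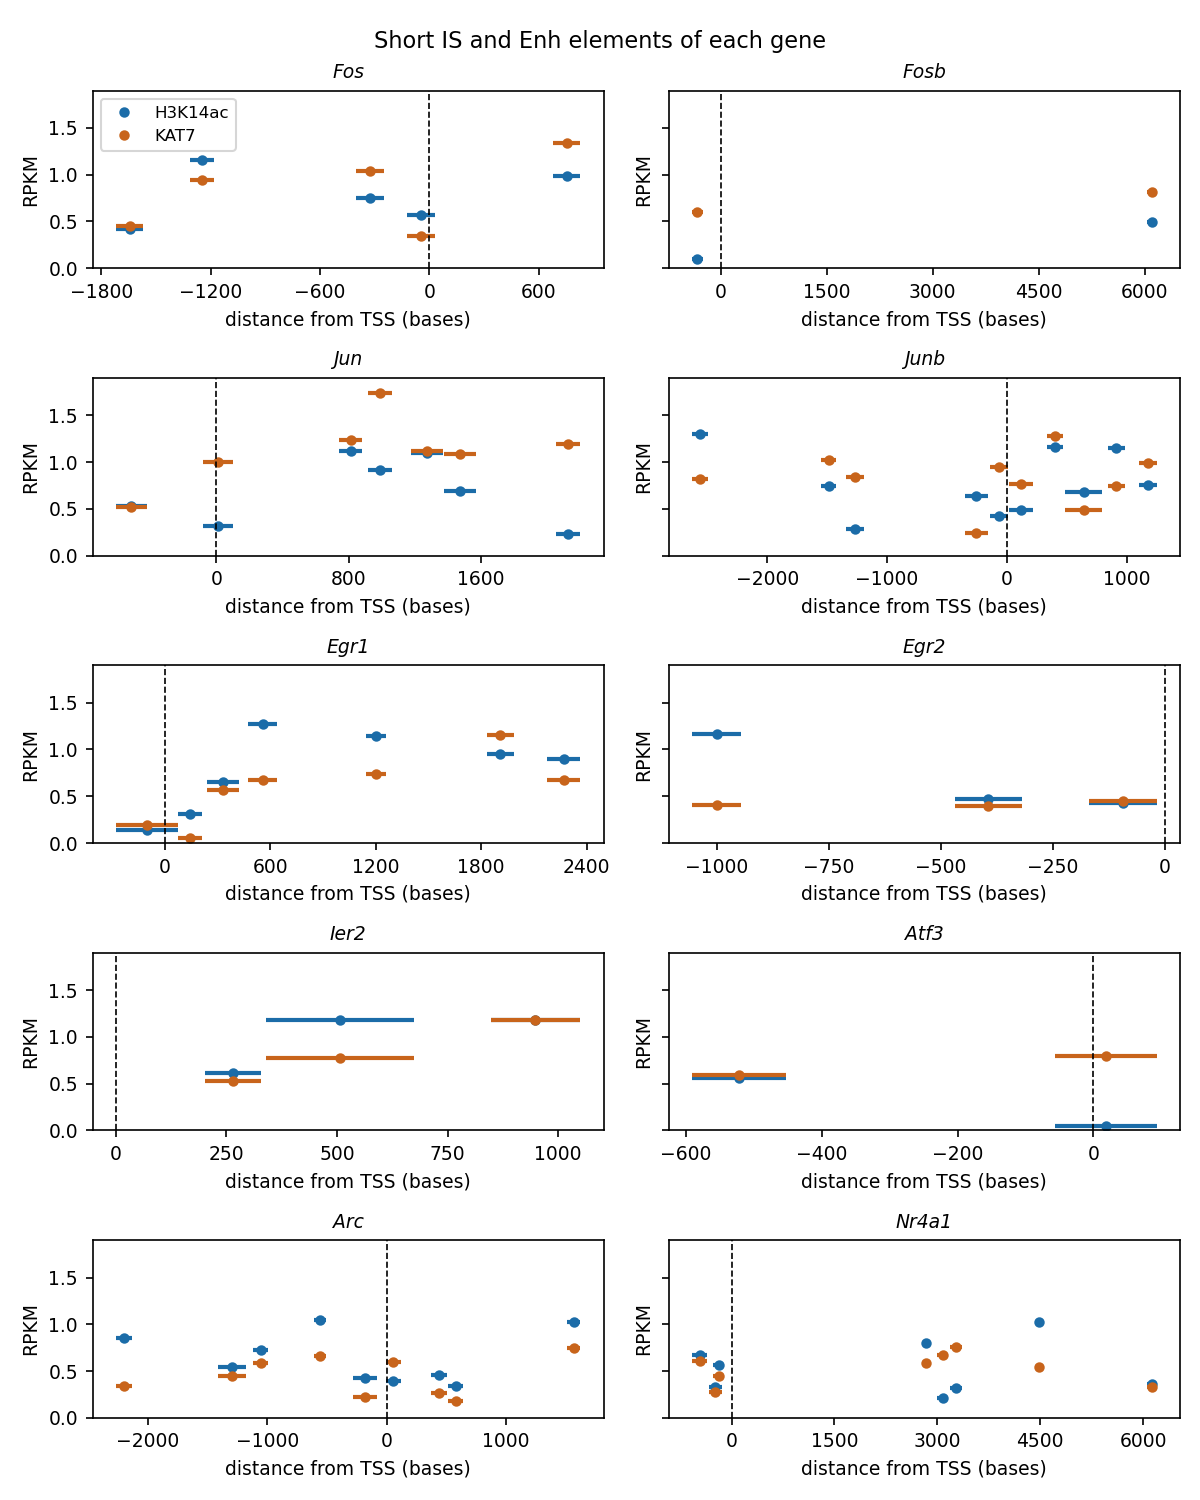
RPKM of H3K14ac (blue) and KAT7 (orange) in each short Enh or IS region of the 10 genes, against distance from the TSS in bases (negative is upstream; horizontal bars are region widths; dashed line is the TSS). The ratio of KAT7 to H3K14ac is above the class median of 1.06 in 5 of 7 regions of Jun and below it in all 5 regions upstream of Arc.

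Summed by distance, the members' short regions had a lower H3K14ac level at the TSS than those of all genes, and a higher one in 3 of the other 4 classes. Regions were placed by their middle. Within 150 bases of the TSS, 9 regions of 7 members had an H3K14ac level of 0.323 (0.253 to 0.407), beside 0.460 (0.456 to 0.464) for 5688 regions of all genes. KAT7 there was 0.543 (0.449 to 0.651), beside 0.554 (0.550 to 0.558), so that the ratio was 1.68 (1.24 to 2.28) against 1.2 (1.19 to 1.22). The H3K14ac level without Egr1 was 0.383 (0.292 to 0.493). That interval holds the level of all genes, so without Egr1 no lower sum was told. A sum gives longer regions more weight, and Egr1's region over the TSS, 352 bases long, had 7 H3K14ac reads, a level of 0.141. The median H3K14ac over single regions was 0.398, beside 0.409 for all genes, so only the sum was clearly lower. Leaving out each member in turn gave ratios from 1.47, without Atf3, to 1.89, without Fos. The all-gene ratio of 1.2 lay inside the intervals without Atf3 (1.07 to 2.02), without Jun (1.08 to 2.09) and without Junb (1.11 to 2.34). Leaving out a member also leaves fewer reads and a wider interval. The ratio stayed above 1.2 each time but was not told from it without any 1 of these 3 genes.

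From 150 to 1000 bases downstream, 13 regions of 6 members had 0.921 (0.819 to 1.03) for H3K14ac, beside 0.708 (0.704 to 0.711) for all genes, and 0.824 (0.726 to 0.932) for KAT7, beside 0.687 (0.684 to 0.691). Without Jun the KAT7 level was 0.729 (0.631 to 0.839), which holds the level of all genes. Between 500 and 5000 bases upstream, 12 regions had 0.738 (0.634 to 0.853) for H3K14ac, beside 0.565 (0.562 to 0.569). KAT7 there, 0.624 (0.526 to 0.734), was not told from the level of all genes, 0.614 (0.610 to 0.617). Between 150 and 500 bases upstream neither level was, with 0.499 (0.405 to 0.607) beside 0.491 for H3K14ac and 0.463 (0.371 to 0.572) beside 0.534 for KAT7. Beyond 1000 bases downstream, 14 regions had a KAT7 level of 0.836 (0.732 to 0.950) beside 0.593, and 0.736 (0.624 to 0.861) without Jun. H3K14ac there was 0.703 (0.611 to 0.805) beside 0.543, but 0.627 (0.529 to 0.737) without Egr1, which holds the level of all genes. The members' regions beyond 1000 bases downstream ended at most 6196 bases from the TSS, and all were of the classes near a TSS. Those of all genes could lie farther away and include Enh and IS regions far from a TSS. The sets compared in that class are therefore not alike, and the part of distance was not tested. Every distance class held under 20 regions of the members.

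**Figure D5:**
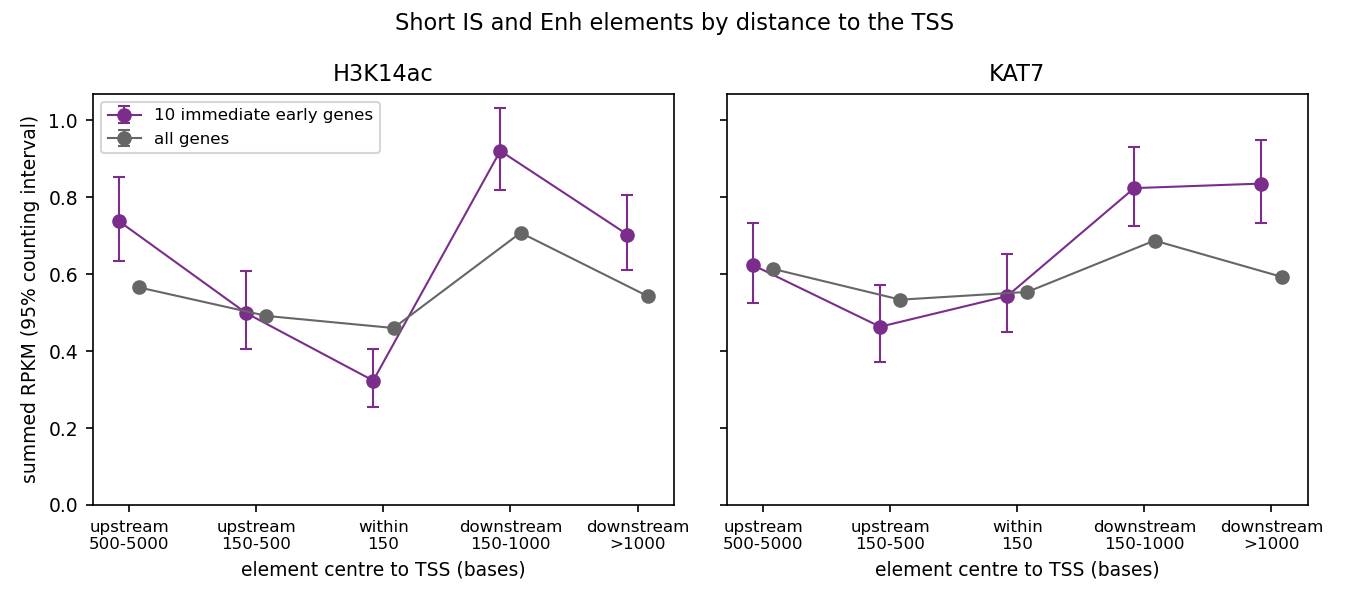
Summed RPKM of short Enh and IS regions in 5 classes of distance to the TSS, for the 10 genes (purple) and all genes (grey), H3K14ac on the left and KAT7 on the right, with 95% counting intervals. The members' H3K14ac dips to 0.323 at the TSS and rises to 0.921 downstream, against 0.460 and 0.708 for all genes.

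Other genes of the response, from a list of 42 further immediate early genes, were also measured. Of 34 gene bodies kept, 3 (Rhob, Ier5 and Ier5l) were 1.5-fold above the median for H3K14ac and 5 (Ier5l, Gadd45g, Rhob, Jund and Plk2) for KAT7, beside 2.1% and 1.89% of all gene bodies, with medians of 0.408 and 0.455. Jund, the third Jun family gene, had 0.564 (0.494 to 0.642) and 0.679 (0.599 to 0.766), a ratio of 1.2 (1.00 to 1.44). Rhob, which encodes a small GTPase, had 0.795 (0.700 to 0.900) and 0.683 (0.593 to 0.783). Cebpb, a bZIP factor gene, was lowest, with 0.207 (0.150 to 0.277) and 0.347 (0.271 to 0.439).

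At 32 TSS islands of that list, 6 were 1.5-fold above the median for H3K14ac and 2 for KAT7, beside 13.4% and 7.05% of all islands, and the median ratio was 1.05, beside 0.921 over the 9 member islands. A ratio 1.5-fold below the median was found at 5 of them, Maff with 0.497 (0.345 to 0.708), Nr4a2, the closest relative of Nr4a1 here, with 0.622 (0.435 to 0.883), Rhob, Klf6 and Klf10, beside 12.6% of islands. A ratio 1.5-fold above it was found at 5 others, Dusp2, Gadd45b, Nfkbia, Pim1 and Cebpb, beside 15.1%. Partners of AP-1 and EGR factors (10 of 12 gene bodies) had medians of 0.387 and 0.428, with no gene body past the fold for either antibody. The upstream signalling and SRF or CREB factor genes (18 of 24) had 0.387 and 0.418, also with none. Gene bodies of these lists were longer, with medians of 16742.5 and 60480 bases beside 3619 for the members, and length was not matched.

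Among gene sets of growth control, FGF and EGF receptor and feedback genes had median island levels of 0.707 (H3K14ac) and 0.694 (KAT7) over 11 islands, beside 0.492 and 0.417 over the 9 member islands. In 6 of those 11 H3K14ac, and in 5 KAT7, was 1.5-fold above the median, Spry2, Spry4, Spred2 and Dusp4 for both, beside the same 13.4% and 7.05% of islands. MYC family islands (9) had medians of 0.429 and 0.390. The differences between these sets and the members were not tested.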

How the data were processed

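The authors' deposited table of mm10 regions was used. The submitters' processing notes name Bowtie2, SAMtools, Picard, deepTools and featureCounts, without versions or roles. Per the file headers, the deposited counts are whole-number reads per region in 1 merged column per antibody. The deposited RPKM equals the count over end minus start and 1 read total per column, in 100% of regions with reads (relative tolerance 1e-06). What SC and gc in the column names mean is not stated.

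The background of each class left out regions that share bases with another of their class, chromosomes X, Y and M, regions above 5 RPKM and those with a mean RPKM under 0.1, leaving 15774 of 20689 gene bodies. All member regions described passed. Symbols came from RefSeq (GRCm38.p6), matching 96.7% of genes. The members were always named, and from each wider list the 3 highest and 2 lowest values of each antibody and the 2 highest and 2 lowest ratios could be. Jund, Klf6, Klf10 and Gadd45b were named after their values were seen. The members and lists were chosen with earlier results of these data known. With merged columns, libraries were not compared. The calculations were tested on simulated data. Python 3.11.15, scipy 1.17.1 and pandas 2.3.3 were used.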

Additional observations from a re-analysis of the deposited data

How the results depend on the processing

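No paired analysis was possible because the deposited columns are merged and carry no replicate numbers; leaving out single libraries was not possible for the same reason. For 10 counts of members past a fold, 72 of 88 alternatives stayed within 1.5 times the reported count. That share says little of stability. Members passed every filter, so the settings of filters, length rule and column totals could hardly move a count. Most of the counts that moved did so under another fold. A limit 25% from the median in place of 1.5-fold gave 5 gene bodies with higher H3K14ac and 1 with a lower ratio, 4 islands with lower KAT7 and 3 with a lower ratio, and 17 short regions with a higher and 25 with a lower ratio. A fold of 2 gave 1 gene body with higher H3K14ac and 1 with higher KAT7, 1 island with higher H3K14ac, 0 islands with higher KAT7, 0 with lower KAT7 and 0 with a lower ratio, 0 promoter windows with a lower ratio and 7 short regions with a lower ratio. Islands within 500 bases of the TSS, which adds both islands of Egr2, gave 2 with a lower ratio. Regions of at most 160 bases, of which there are 37 rather than 56, gave 6 with a higher ratio. Taking the reads of its inner island out of the Egr2 gene body lowered H3K14ac to 0.326. The filters on low values, shared bases, sex chromosomes and high values, the length rule and the column totals kept each count within 1.5 times. At single short regions few reads leave wide intervals, such as 2.63 to 709 at the TSS of Atf3.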
